A study of Homo sapiens with 3 samples.

Results

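The 10 genes described here, CYLD, OPTN, TNIP1, USP15, RASA1, FBXW7, BRCA1, MTSS1, NDRG1 and ADCY6, have been reported in the literature as targets of the microRNA miR-182-5p and act in signalling or in tumour suppression. They were chosen by gene name, and all 10 were present among the 30923 genes of the deposited table. RNA was sequenced from QBC939 cells (also written QBC-939), an established line of human bile duct cancer, or cholangiocarcinoma, labelled as genotype WT. The groups were cells overexpressing miR-182-5p (label oe-miR-182-5p), cells overexpressing miR-183-5p (label oe-miR-183-5p) and control cells (label oe-NC), with 1 library each, each named by its microRNA or as NC from here on. The titles of both microRNA libraries end in "mim", and the labels say nothing of dose, time after delivery or number of cultures.

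A microRNA pairs through its seed, a short stretch near its 5′ end, with complementary sites in messenger RNAs, mostly in the 3′ untranslated region (3′ UTR), and lowers translation, the level of the RNA, or both. miR-182-5p, miR-183-5p and miR-96-5p are made from 1 gene cluster and are abundant in many carcinomas. RNA sequencing measures the level of the RNA alone, so effects on translation are outside these data.

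The mature microRNAs are printed to show the seed that the sites of the 10 genes are matched to, with bases 2 to 8 in capitals (RefSeq, GRCh38.p14, minus strand). They lie at chr7:129770447-129770470 (miR-182-5p), chr7:129774967-129774988 (miR-183-5p) and chr7:129774739-129774761 (miR-96-5p).
miR-182-5p: uUUGGCAAugguagaacucacacu
miR-183-5p: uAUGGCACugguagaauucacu
miR-96-5p: uUUGGCACuagcacauuuuugcu
Counted from the 5′ end and with the base of miR-182-5p first, the seeds of miR-182-5p and miR-183-5p differ by U2A and A8C. The 7-base site searched was TTGCCAA for miR-182-5p, GTGCCAT for miR-183-5p and GTGCCAA for miR-96-5p, on the strand of the transcript only. An 8-base site has an A after these 7 bases.

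Sites were searched in the longest 3′ UTR of each gene in the basic set of GENCODE release 29 (GRCh38), a subset of its transcripts. A miR-182-5p site of 7 bases was held by 8 of the 10 genes, against 15.7% of 10932 expressed genes with an annotated 3′ UTR. This share was 21.5% among the 7150 expressed genes whose 3′ UTR length lay within the range of the 10 genes, from 834 nucleotides in TNIP1 to 12014 in USP15. Seed sites are commonly used in choosing candidate targets, so the share is a description of these genes. The sites of 7 genes follow, to show the sequence around each match, with the 7 matching bases in capitals.
CYLD: tttaaaaatttctgtTTGCCAAat
OPTN: ttgtaagtctacaatTTGCCAAga
TNIP1: ccagctgatctcagaTTGCCAAga
USP15: ttaattttcaaactaTTGCCAAaa
RASA1, nearer the stop codon: atgtctcctttgctcTTGCCAAaa
RASA1, farther from it: tttcagtacacccagTTGCCAAag
FBXW7: tttttttgccaaccaTTGCCAAtg
ADCY6: tctcttcctcttctgTTGCCAAat
These stretches lie at chr16:50799547-50799570 (plus strand, CYLD), chr10:13138187-13138210 (plus, OPTN), chr5:151030648-151030671 (minus, TNIP1) and chr12:62412206-62412229 (plus, USP15). Those of RASA1 lie at chr5:87390948-87390971 and chr5:87391202-87391225 (plus), that of FBXW7 at chr4:152322308-152322331 (minus) and that of ADCY6 at chr12:48767644-48767667 (minus). The FBXW7 stretch also holds the other match of that gene, in lower case, since its sites begin 555 and 565 nucleotides after the stop codon.

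CYLD, USP15, RASA1, MTSS1 and ADCY6 held at least 1 miR-182-5p site of 8 bases, and RASA1 held 2. MTSS1 held a 7-base site beginning 1083 nucleotides after the stop codon and an 8-base site beginning at 1928. BRCA1 had no match to the 7-base site or to the 6-base site (positions 2 to 7), and NDRG1 had 1 match to the 6-base site only. Not every annotated transcript carries the site. Among coding transcripts of the basic set with a 3′ UTR, it was present in 1 of 7 in CYLD, 1 of 3 in USP15 and 3 of 3 in ADCY6. Which transcripts these cells use was not measured. USP15 and ADCY6 also held 1 miR-183-5p site each, MTSS1 held 1 miR-96-5p site and ADCY6 held 3.

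**Figure D1:**
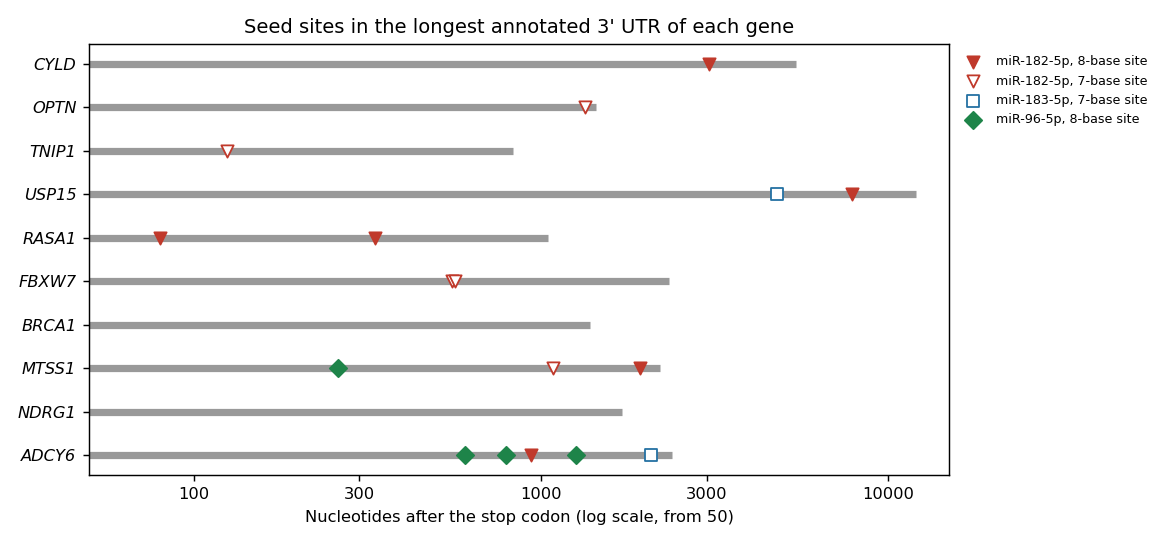
Seed sites of miR-182-5p, miR-183-5p and miR-96-5p in the longest annotated 3′ UTR of each gene, drawn as a grey bar, by distance from the stop codon (nucleotides, log axis starting at 50); filled markers are 8-base sites and open ones 7-base sites. The sites of RASA1 begin 80 and 334 nucleotides after the stop codon, that of USP15 at 7846, and BRCA1 and NDRG1 have none.

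Counts summed to 61709874 in miR-182-5p cells, to 67427313 in miR-183-5p cells and to 64516706 in NC cells, and mitochondrially encoded genes took 16.7%, 16.1% and 13.5% of them in the same order. Levels of the delivered microRNAs were not analysed here. All 7 biliary epithelium markers looked up reached an FPKM (counts relative to transcript length and sequencing depth) of at least 1 in some library. The cells expressed KRT19 at 76.3 to 81.6 FPKM. KRT7, another bile duct keratin of the list, was barely past the cut, at 1.03 to 1.46 FPKM. All hepatocyte markers stayed below 1, PTPRC, the defining leukocyte marker, had 9 counts in miR-182-5p cells and 0 in the others, and the macrophage marker CD68 was at 1.08 FPKM in miR-182-5p cells, 0.615 in miR-183-5p cells and 1.47 in NC cells. Of the fibroblast markers COL1A1 alone reached 1, at 1.81 FPKM in miR-182-5p cells, 1.14 in miR-183-5p cells and 0.952 in NC cells. The marker lists summed to 754, 816 and 872 FPKM for biliary epithelium, and to 0.369, 0.244 and 0.205 for hepatocytes, in the same order of libraries. They summed to 2.43, 1.74 and 1.54 FPKM for fibroblasts and to 742, 711 and 772 for immune or endothelial cells, of which the lysozyme gene LYZ, which mucosal epithelia also express, made up 741, 710 and 771. The part of other cells in the results was not tested.

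As a group the 10 genes were not lower in miR-182-5p cells than in NC cells. Ratios of CPM (counts scaled to the same library total) were above 1 for OPTN, NDRG1, MTSS1, ADCY6, FBXW7 and CYLD, and below 1 for TNIP1, USP15, RASA1 and BRCA1. The highest was 1.37 (OPTN) and the lowest 0.852 (BRCA1). Ratios above 1 were found for 47% of the 11956 genes with at least 5 CPM in 1 of these libraries. Of the 10 genes, 4 (OPTN, NDRG1, MTSS1 and ADCY6) were at least 1.2-fold higher and 0 at least 1.2-fold lower. Over those 11956 genes, 20.6% were at least 1.2-fold higher and 19.8% at least 1.2-fold lower. These shares moved with the scaling, to 25.3% and 14.5% without mitochondrially encoded genes, where 6 of the 10 genes were higher and 0 lower, and to 16.8% and 26.8% with DESeq2 scaling, where 3 were higher and 1 lower. The median log2 ratio was 0.24 for the 10 genes and -0.02 for all genes. With 1 library per group no test between conditions is possible, and the 95% intervals in parentheses (exact, conditional on the sum of both counts) cover counting error only. In these bulk samples fewer cells expressing a gene and less RNA per cell cannot be told apart.

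In miR-183-5p cells the 10 genes lay closer to NC. Ratios were above 1 for 6 of the 10 genes and for 42% of all genes. OPTN was at least 1.2-fold higher, 0 were at least 1.2-fold lower, and the shares of 11762 genes were 8.05% and 9.13% (10.8% and 6.17% without mitochondrially encoded genes). The median log2 ratio was 0.0046 for the 10 genes and -0.04 for all genes. Both microRNA libraries are set against the same NC library, so an NC value that is off would move both ratios of a gene together.

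**Figure D2:**
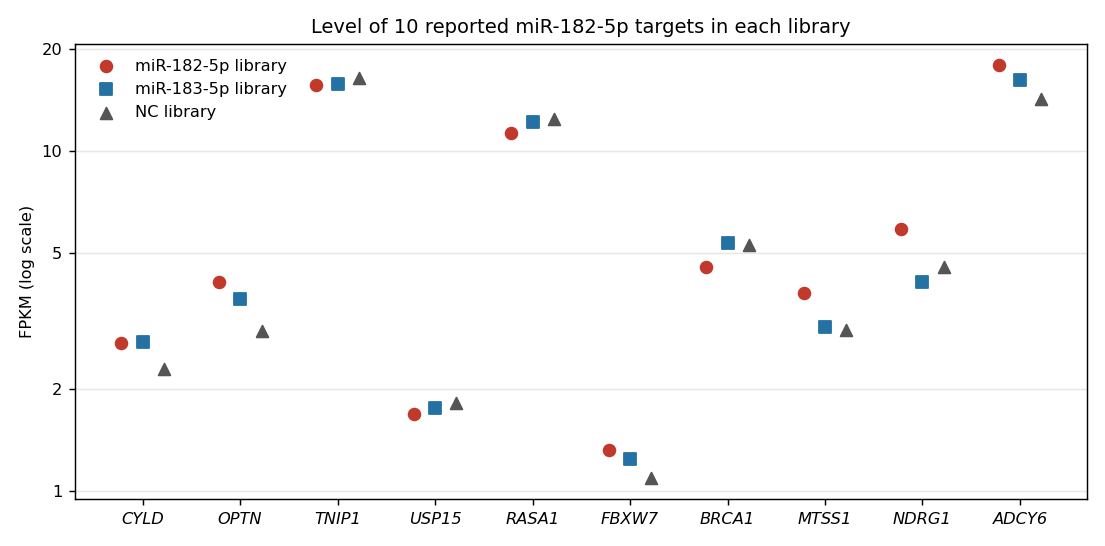
FPKM (log axis) of each gene in cells with miR-182-5p or miR-183-5p and in NC cells, 1 point per library. OPTN is lowest in NC cells (2.95) and BRCA1 is lowest in miR-182-5p cells (4.57).

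Levels between genes are compared as FPKM, which divides by transcript length. In NC cells the order was TNIP1 (16.4 FPKM), ADCY6 (14.2), RASA1 (12.5), BRCA1 (5.30), NDRG1 (4.57), MTSS1 (2.98), OPTN (2.95), CYLD (2.28), USP15 (1.81) and FBXW7 (1.09). The lengths behind the deposited FPKM are not given. Taken as CPM over FPKM in NC cells, they came out at 1.5 times the merged exon length of GENCODE for the median gene and at 3.85 times for NDRG1. This assumes the same library total behind both measures, and another total would scale all these lengths alike. Merged exon lengths are those of the GENCODE basic set throughout. Exons merged over all GENCODE transcripts cover 12954 bases in CYLD, against 9011 in the basic set and 15603 taken from FPKM. The same lengths were 9187, 7828 and 11199 for BRCA1 and 8410, 6727 and 10106 for ADCY6. The factors of 1.5 and 3.85 thus depend on the basic set. NDRG1 ranked 3rd, above RASA1 and BRCA1, when CPM were divided by the basic-set length. The levels of MTSS1 and OPTN in NC were not separable, since their order (2.98 and 2.95 FPKM) rests on 1803 and 1182 counts. By FPKM ADCY6 stood above TNIP1 in both microRNA libraries but below it in NC cells. With CPM divided by the basic-set length ADCY6 stayed below TNIP1 in every library. Neither order was worked out with exons merged over all transcripts.

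Coordinates of genes are those of the deposited table, in which 57.9% of gene spans equal those of GENCODE 29 on GRCh38. CYLD, OPTN and TNIP1 act on the ubiquitin chains that carry signals to NF-kB, the inflammatory transcription factor. CYLD (ENSG00000083799, chr16:50742050-50801935) is a deubiquitinase that removes such chains and restrains the pathway. It had 2.73 FPKM in miR-182-5p cells, 2.75 in miR-183-5p cells and 2.28 in NC cells. The microRNA libraries could not be told apart and were both above NC, at 1.18 times its CPM for miR-182-5p (1.11 to 1.25) and 1.19 times for miR-183-5p (1.12 to 1.25). Of the 11762 genes compared between miR-183-5p cells and NC cells, 8.89% had a higher ratio than CYLD.

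OPTN (ENSG00000123240, chr10:13099449-13138308) encodes optineurin, a ubiquitin-binding receptor for selective autophagy that also dampens NF-kB signalling. It had 1550 counts (4.12 FPKM) in miR-182-5p cells, 1514 counts (3.68 FPKM) in miR-183-5p cells and 1182 counts (2.95 FPKM) in NC cells. Both microRNA libraries were above NC, and miR-182-5p cells were also above miR-183-5p cells, at 1.12 times its CPM (1.04 to 1.2). The ratio to NC was 1.37 for miR-182-5p (1.27 to 1.48) and 1.23 for miR-183-5p (1.14 to 1.32), with 10.3% and 6.63% of genes having a higher one.

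TNIP1 (ENSG00000145901, chr5:151029945-151093577) binds ubiquitin chains together with the editing enzyme TNFAIP3 and restrains NF-kB. It had 15.7 FPKM in miR-182-5p cells, 15.7 in miR-183-5p cells and 16.4 in NC cells. miR-182-5p cells were at 0.939 times the CPM of NC (0.909 to 0.971) and miR-183-5p cells at 0.942 times (0.912 to 0.973). These ratios lay inside the bulk of all genes, since 41.1% of genes had a lower ratio in the miR-182-5p comparison.

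The 24 other regulators of NF-kB ubiquitin signalling that were measured, of 25 listed, spread in both directions in miR-182-5p cells: 4 were at least 1.2-fold higher than in NC and 6 at least 1.2-fold lower. Over all genes the shares were 20.6% and 19.8%. The apoptosis inhibitor BIRC3 was the highest at 1.54 (1.43 to 1.65) and the IkB kinase subunit CHUK the lowest at 0.706 (0.673 to 0.740). OTULIN, the deubiquitinase that like CYLD cuts linear chains, was at 1.2 (1.14 to 1.26), SPATA2, which recruits CYLD to its receptor complex, at 0.799 (0.737 to 0.866), and the TNIP1 relative TNIP2 at 0.787 (0.743 to 0.834). TNFAIP3, the partner of TNIP1, was at 1.44. In miR-183-5p cells 2 were higher and 4 lower, with BIRC3 again the highest at 1.23 and the inhibitor NFKBIA the lowest at 0.683. Over all genes 8.05% were higher and 9.13% lower. TBK1, the kinase that phosphorylates OPTN, was at 0.810 (0.770 to 0.852) in miR-182-5p cells and 0.902 (0.859 to 0.946) in miR-183-5p cells. Of 8 other autophagy receptors measured, RETREG1 was the highest in both, at 1.87 (1.68 to 2.08) and 1.34 (1.2 to 1.5), and SQSTM1 the lowest, at 0.804 and 0.864.

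USP15 (ENSG00000135655, chr12:62260338-62417431) is a deubiquitinase with substrates in TGF-beta signalling, among others. It had 2400 counts in miR-182-5p cells, 2724 in miR-183-5p cells and 2734 in NC cells, or 1.69, 1.75 and 1.81 FPKM. miR-182-5p cells were the lowest, at 0.918 times the CPM of NC (0.868 to 0.970), and miR-183-5p cells were at 0.953 times with an interval that includes 1 (0.904 to 1.01). Of its paralogues and substrates, 6 measured of 6 listed, the paralogue USP4 was the highest in miR-182-5p cells at 1.13 and the substrate KEAP1 the lowest at 0.753 (0.715 to 0.792). In miR-183-5p cells USP4 was again the highest at 1.15 and KEAP1 the lowest at 0.792. KEAP1 was the 1 gene of the list past 1.2-fold in either. The shares of all genes higher and lower were 20.6% and 19.8% in miR-182-5p cells, and 8.05% and 9.13% in miR-183-5p cells.

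RASA1 (ENSG00000145715, chr5:87267883-87391919) encodes a GTPase-activating protein that switches RAS proteins off. It held 2 of the 8-base sites and had 4345 counts (11.3 FPKM) in miR-182-5p cells, 5094 counts (12.2 FPKM) in miR-183-5p cells and 5058 counts (12.5 FPKM) in NC cells. miR-182-5p cells were the lowest, at 0.898 times NC (0.862 to 0.935) and 0.932 times miR-183-5p cells (0.895 to 0.971). miR-183-5p cells were at 0.964 times NC with an interval that includes 1 (0.927 to 1.002). In the miR-182-5p comparison 32.5% of all genes had a lower ratio than RASA1. RASA1 shares 771 exonic bases with the cyclin gene CCNH on the opposite strand, and with the counts of both genes summed the ratio to NC was 0.903 for miR-182-5p.

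Of 17 other genes of the RAS switch that were measured, 5 were at least 1.2-fold higher and 1 at least 1.2-fold lower in miR-182-5p cells than in NC cells. Over all genes the shares were 20.6% and 19.8%. The median log2 ratio of the 17 was 0.13. The exchange factor SOS2 was the highest at 1.38 (1.26 to 1.5) and NRAS the lowest at 0.808 (0.776 to 0.841). Among the GTPase-activating proteins, RASAL2 was at 1.31, RASA2 at 1.26, RASAL1 at 1.11, NF1 at 1.06, RASA3 at 1.04 and DAB2IP at 0.921. The same genes were at 0.989, 1.05, 1.07, 1.05, 1.03 and 0.95 in miR-183-5p cells. In miR-183-5p cells 2 were higher and 0 lower, against 8.05% and 9.13% of all genes, with NRAS the lowest at 0.858.

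FBXW7 (ENSG00000109670, chr4:152320544-152536092) encodes the substrate-binding subunit of an SCF ubiquitin ligase that marks cyclin E, MYC and NOTCH1 for degradation. It was the lowest of the 10 genes by FPKM, with 1.32 in miR-182-5p cells, 1.24 in miR-183-5p cells and 1.09 in NC cells. Both microRNA libraries were above NC, at 1.19 times its CPM for miR-182-5p (1.09 to 1.30) and 1.12 times for miR-183-5p (1.03 to 1.23). They could not be told apart from each other at this depth, with a ratio of 1.06 (0.976 to 1.16) on 1061 and 1091 counts.

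The scaffold subunit CUL1 was the lowest of 8 SCF subunits and F-box genes in miR-182-5p cells at 0.819 (0.791 to 0.848), the only one of them past 1.2-fold, and FBXW8 the highest at 1.12. In miR-183-5p cells BTRC was the highest at 1.17 and FBXW11 the lowest at 0.846, and none was past 1.2-fold. The shares of all genes higher and lower were 20.6% and 19.8% in miR-182-5p cells, and 8.05% and 9.13% in miR-183-5p cells. Among 9 genes whose proteins FBXW7 binds, SREBF1 was the highest at 1.48 (1.44 to 1.52) and CCNE1 the lowest at 0.766 (0.712 to 0.823) in miR-182-5p cells. The same genes were at the ends in miR-183-5p cells, at 1.23 and 0.725. FBXW7 acts on these proteins, and their levels were not measured.

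BRCA1 (ENSG00000012048, chr17:43044295-43170245) encodes a DNA repair protein needed for homologous recombination. It had 3122 counts (4.57 FPKM) in miR-182-5p cells, 4013 counts (5.38 FPKM) in miR-183-5p cells and 3831 counts (5.30 FPKM) in NC cells. miR-182-5p cells stood apart below the other two, at 0.852 times NC (0.812 to 0.893) and 0.850 times miR-183-5p cells (0.811 to 0.891), and miR-183-5p cells were at 1.002 times NC (0.959 to 1.05). BRCA1 had the lowest ratio to NC of the 10 genes in miR-182-5p cells, without a seed site, and 23.3% of all genes had a lower one. Against miR-183-5p cells 10.1% did. With DESeq2 scaling the ratio to NC was 0.816, past 1.2-fold.

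The BRCA1 locus holds other counted genes. Among them, NBR2 on the opposite strand had 826 counts in miR-182-5p cells, 734 in miR-183-5p cells and 665 in NC cells, without shared exonic bases. The long noncoding gene AC060780 (ENSG00000267002) lies on the same strand, its span overlaps that of BRCA1 by 21878 bases, and the annotated exons share 120 bases. AC060780 had 3234 counts in miR-182-5p cells, 2780 in miR-183-5p cells and 2168 in NC cells, and was thus highest in miR-182-5p cells, where BRCA1 was lowest. Its ratio to NC was 1.56 (1.48 to 1.65) for miR-182-5p and 1.23 (1.16 to 1.3) for miR-183-5p. With the counts of BRCA1 and AC060780 summed miR-182-5p cells were at 1.11 times NC (1.07 to 1.15). AC060780 brings its own ratio of 1.56 into this sum, so it is not a value of BRCA1. Whether the authors' counting moved reads between these genes was not tested.

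Of 21 BRCA1 partners and other homologous recombination genes, all measured, 2 were at least 1.2-fold higher and 7 at least 1.2-fold lower in miR-182-5p cells. Over all genes the shares were 20.6% and 19.8%. The median log2 ratio of the 21 was -0.14. XRCC2 was the highest at 1.43 (1.37 to 1.48). The lowest was BABAM2, a subunit of the BRCA1-A complex, at 0.670 (0.602 to 0.745). In miR-183-5p cells 1 was higher and 4 lower, XRCC2 being the highest at 1.21 and ABRAXAS1, the scaffold of that complex, the lowest at 0.684 (0.618 to 0.757). Over all genes 8.05% were higher and 9.13% lower. BARD1, the obligate partner of BRCA1, was at 0.944 (0.871 to 1.02) in miR-182-5p cells and 0.938 (0.867 to 1.01) in miR-183-5p cells.

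**Figure D3:**
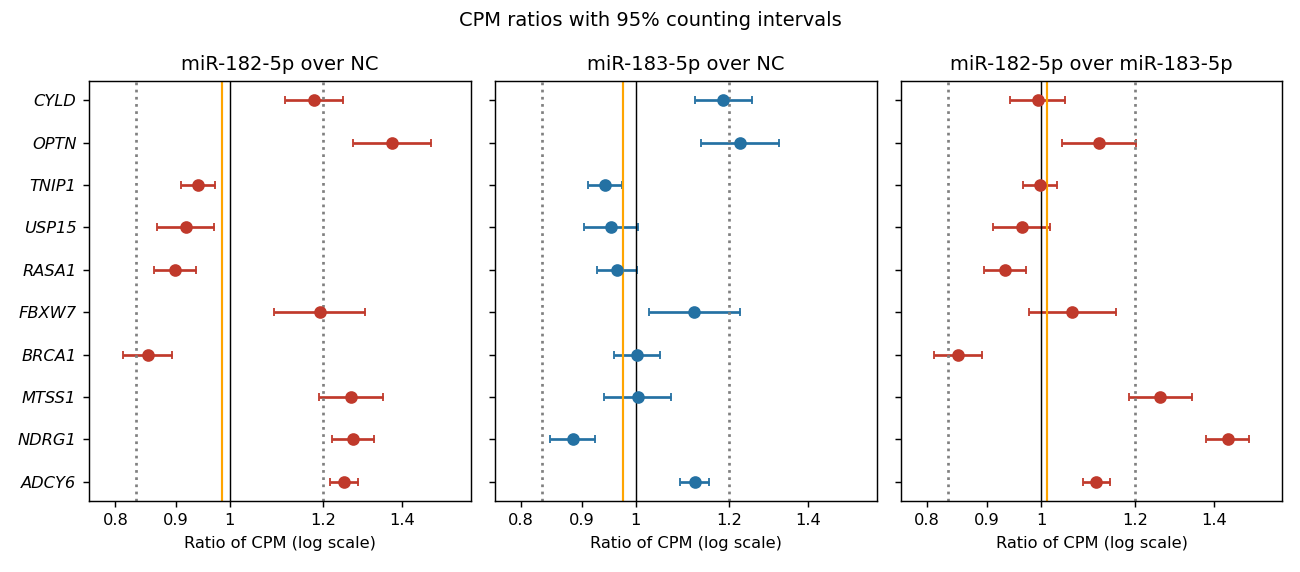
Ratio of CPM (log axis) of each gene with its 95% counting interval, for miR-182-5p over NC, miR-183-5p over NC and miR-182-5p over miR-183-5p; dotted lines mark 1.2-fold and the orange line the median of all genes. In the panel of miR-182-5p over NC no interval includes 1, with 6 genes above it and 4 below.

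MTSS1 (ENSG00000170873, chr8:124550784-124728473) bends membranes and binds actin, and its loss has been linked to invasion. It had 2184 counts (3.83 FPKM) in miR-182-5p cells, 1892 counts (3.04 FPKM) in miR-183-5p cells and 1803 counts (2.98 FPKM) in NC cells. miR-182-5p cells were the highest, at 1.27 times NC (1.19 to 1.35) and 1.26 times miR-183-5p cells (1.19 to 1.34), while miR-183-5p cells were at 1.004 times NC (0.941 to 1.07). On the opposite strand NDUFB9, with 16736 counts in miR-182-5p cells and 15265 in NC cells, shares 677 exonic bases with MTSS1. NDUFB9 was itself at 1.15 times NC (1.12 to 1.17) in miR-182-5p cells, and whether its reads entered the MTSS1 count was not tested. With the counts of both genes summed, miR-182-5p was at 1.16 times NC (1.14 to 1.18) and 1.06 times miR-183-5p (1.03 to 1.08), both within 1.2-fold. The summed ratio of miR-183-5p to NC was 1.1 (1.08 to 1.12). Most counts in these sums are those of NDUFB9, so they are not values of MTSS1. The 4 other genes of the I-BAR family, all measured, lay within 1.2-fold of NC in both microRNA libraries. So did 59.5% of all genes in miR-182-5p cells and 82.8% in miR-183-5p cells. In miR-182-5p cells they were BAIAP2L2 at 1.14, BAIAP2L1 at 1.05, BAIAP2 at 0.988 and MTSS2 at 0.919, and in miR-183-5p cells the highest was BAIAP2 at 1.12 and the lowest BAIAP2L1 at 0.910.

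NDRG1 (ENSG00000104419, chr8:133237175-133302022) is a stress gene induced by low oxygen and described as a suppressor of metastasis. It had 5190 counts (5.90 FPKM) in miR-182-5p cells, 3944 counts (4.11 FPKM) in miR-183-5p cells and 4265 counts (4.57 FPKM) in NC cells. The microRNA libraries lay on opposite sides of NC, at 1.27 times for miR-182-5p (1.22 to 1.33) and 0.885 times for miR-183-5p (0.847 to 0.924). Between them the ratio was 1.44 (1.38 to 1.5), the highest of the 10 genes, and 3.60% of all genes had a higher one. The kinase gene SGK1, whose product phosphorylates NDRG1, was at 1.07 (0.999 to 1.15) in miR-182-5p cells. NDRG4 was at 1.51 (1.39 to 1.64) and 1.22 (1.12 to 1.33) in the miR-182-5p and miR-183-5p libraries, NDRG2 just under 1.2 (1.12 to 1.28) and 0.895 (0.833 to 0.961), and NDRG3 at 0.877 (0.836 to 0.918) and 0.887 (0.847 to 0.928).

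ADCY6 (ENSG00000174233, chr12:48766194-48789037) is an adenylate cyclase, which makes the messenger cAMP. It had the most counts of the 10 genes in each library, with 11060 (18 FPKM) in miR-182-5p cells, 10856 (16.2 FPKM) in miR-183-5p cells and 9260 (14.2 FPKM) in NC cells. The 3 libraries were separate beyond counting error: miR-182-5p was at 1.25 times NC (1.21 to 1.28), miR-183-5p at 1.12 times NC (1.09 to 1.15), and miR-182-5p at 1.11 times miR-183-5p (1.08 to 1.14). With DESeq2 or TMM scaling the first of these ratios was just under 1.2. Of 16 other genes of cAMP signalling measured in the miR-182-5p comparison, 4 were at least 1.2-fold higher and 3 at least 1.2-fold lower. Over all genes the shares were 20.6% and 19.8%. The cyclase ADCY4 was the highest at 2.55 (2.08 to 3.15) on 322 against 132 counts, having passed the minimum of 5 CPM through miR-182-5p cells alone, and the kinase regulatory subunit PRKAR1B the lowest at 0.778 (0.736 to 0.823). ADCY3 was at 1.21 (1.17 to 1.25). In miR-183-5p cells none of 15 was past 1.2-fold in either direction, from GNAS at 0.865 to RAPGEF3 at 1.18. Over all genes 8.05% were higher and 9.13% lower.

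Setting the microRNA libraries against each other removes NC from the comparison. NDRG1 and MTSS1 were at least 1.2-fold higher in miR-182-5p cells than in miR-183-5p cells and 0 of the 10 genes at least 1.2-fold lower, against 14.8% and 7.68% of 11929 genes (10.1% and 14.6% with DESeq2 scaling). Ratios were above 1 for 5 of the 10 genes and 53% of all genes. OPTN, MTSS1, NDRG1 and ADCY6 had intervals above 1, against 36.7% of all genes, and RASA1 and BRCA1 had intervals below 1, against 31.5%, so that 6 of the 10 lay on either side, against 68.1%. The intervals of CYLD (0.941 to 1.05), TNIP1 (0.964 to 1.03), USP15 (0.911 to 1.02) and FBXW7 included 1.

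Of the other genes of their pathways, 3 NF-kB regulators were at least 1.2-fold higher and 1 at least 1.2-fold lower in miR-182-5p cells than in miR-183-5p cells, from TNFAIP3 at 1.36 to RNF31, a subunit of the linear ubiquitin ligase, at 0.743. For all lists of this comparison the shares of all genes were 14.8% higher and 7.68% lower. Among autophagy receptors RETREG1 was the highest at 1.39 and FUNDC1 the lowest at 0.830, with 1 past 1.2-fold in each direction. The list of USP15 ran from SMAD7 at 1.06 to KEAP1 at 0.951, and that of SCF genes from FBXW2 at 1.12 to SKP1 at 0.862, with none past 1.2-fold. Of the RAS genes 2 were higher and 0 lower, from RASAL2 at 1.33 to HRAS at 0.903, and of the FBXW7 substrates 1 was higher and 0 lower, from SREBF1 at 1.2 to AURKA at 0.862. Homologous recombination genes counted 1 higher and 5 lower, from the nuclease gene MRE11 at 1.22 to the nuclease gene EXO1 at 0.702. Genes of cAMP signalling counted 3 higher and 1 lower, from ADCY4 at 1.34 to the kinase subunit PRKACB at 0.741. The NDRG list counted 2 higher and 0 lower, from NDRG2 at 1.34 to SGK1 at 0.975, and the I-BAR list none, from BAIAP2L1 at 1.16 to BAIAP2 at 0.885. Other reported targets counted 2 higher and 0 lower, from RGS17 at 1.36 to CLOCK at 0.840, and ADCY4 and RGS17 again reached 5 CPM in miR-182-5p cells alone.

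All 10 ratios of miR-182-5p over NC had intervals that exclude 1, 6 above and 4 below it, but at this depth so did those of 77.3% of all genes, 36.2% above and 41% below. For miR-183-5p over NC 4 intervals lay above 1 and 2 below it, against 25.1% and 39.4% of all genes, so that 6 of the 10 excluded 1, against 64.5%. None of the 10 genes reached 2-fold in any comparison. For miR-182-5p over NC 1.26% of all genes were at least 2-fold higher and 0.376% at least 2-fold lower, for miR-183-5p over NC 0.434% and 0.332%, and for miR-182-5p over miR-183-5p 0.587% and 0.327%. The 10 genes spanned a range of CPM in NC cells from 14.4 to 144. For miR-182-5p over NC the median log2 ratio of the 7850 genes within it was -0.05, with 14.7% at least 1.2-fold higher and 19.8% at least 1.2-fold lower.

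Transcript length moved with the ratios over all genes. For miR-182-5p over NC the median log2 ratio was -0.15 in the 25% of genes with the shortest merged exons (up to 2315 bases) and 0.08 in the 25% with the longest (from 5649). Of the 10 genes, 5 were among the longest 25%, 4 among the next and TNIP1 in the class below that. The part of length in the ratios of the 10 genes was not tested.

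**Figure D4:**
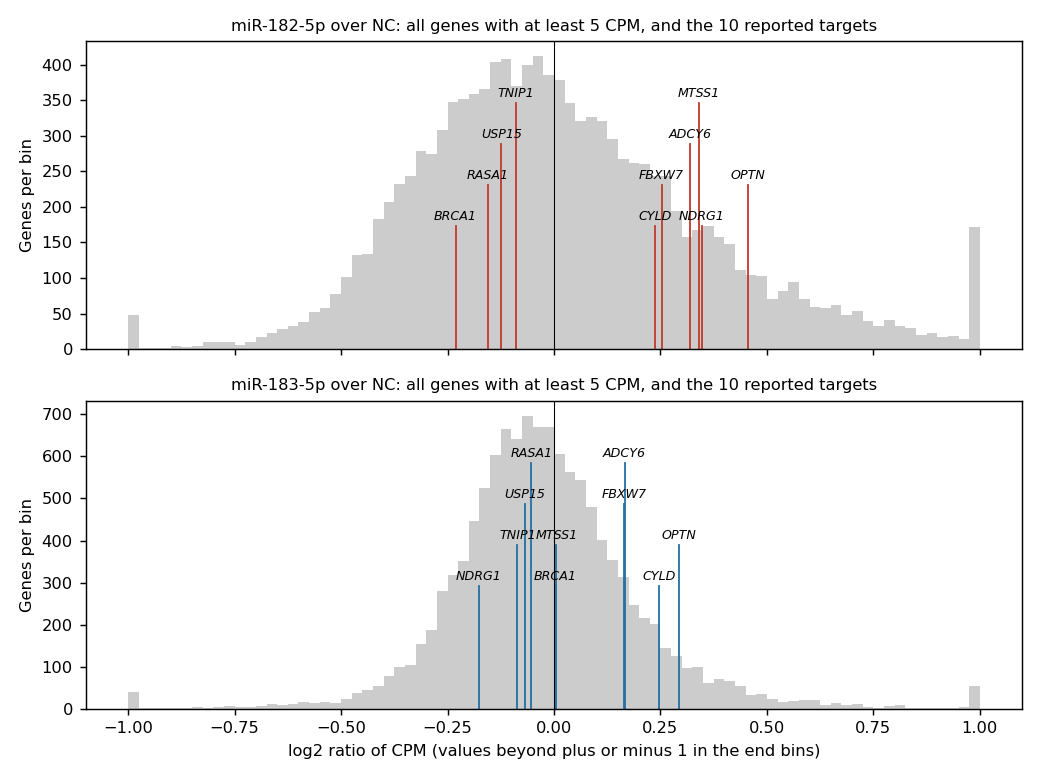
Histograms of the log2 ratio of CPM over all genes with at least 5 CPM, for miR-182-5p over NC (top) and miR-183-5p over NC (bottom), with a line for each of the 10 genes whose height has no meaning. In the top panel 6 genes lie to the right of 0 and 4 to the left; OPTN, at 0.46, is the farthest right.

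The 8 genes with a 7-base miR-182-5p site had a median log2 ratio of 0.24 in miR-182-5p cells, 5 of them above 0, and the 5 with an 8-base site one of 0.24, with 3 above 0 and 2 below. Of the genes without a site BRCA1 was at -0.23 and NDRG1 at 0.35. For miR-182-5p over miR-183-5p the median log2 ratio was 0.04 for the 8 genes, 4 of them above 0, and -0.01 for the 5 with an 8-base site, with 2 above 0 and 3 below. With so few genes on each side, no relation between site and ratio can be read from the 10. Over all genes the median for miR-182-5p over NC was -0.02 for 1711 genes with a 7-base site and -0.05 for 9174 without one. These groups were not matched for transcript length, which moved with the ratios. An effect of sites, or the lack of one, cannot be read from them.

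The 20 other reported miR-182-5p targets found in the file, of 22 listed, included 16 with at least 5 CPM in the miR-182-5p or NC library. The median log2 ratio of the 16 was 0.04. Of these, 3 were at least 1.2-fold higher and 2 at least 1.2-fold lower, against 20.6% and 19.8% of all genes. Among the 3 is RGS17, at 1.32, which passed the minimum of 5 CPM through miR-182-5p cells alone. The TGF-beta transducer SMAD4 was the highest at 1.38 (1.28 to 1.5) and the prostaglandin-degrading enzyme HPGD the lowest at 0.687 (0.595 to 0.793). In miR-183-5p cells 0 of 15 were higher and 2 lower, from HPGD at 0.660, which reached 5 CPM in NC cells alone, to CLOCK at 1.16. Over all genes 8.05% were higher and 9.13% lower.

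**Figure D5:**
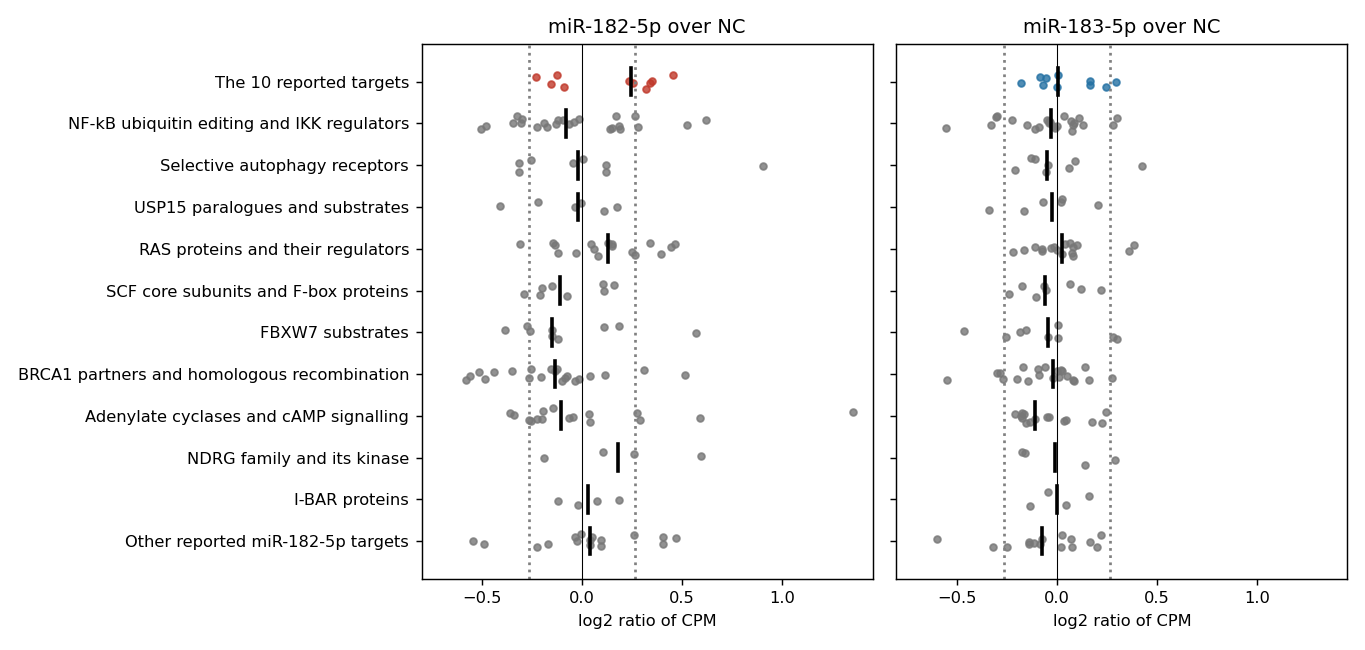
log2 ratio of CPM for miR-182-5p over NC (left) and miR-183-5p over NC (right), 1 point per gene with at least 5 CPM, black bars at each list's median and dotted lines at 1.2-fold; vertical scatter within a row has no meaning. The median of the 10 reported targets is 0.24 on the left and 0.0046 on the right.

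The pair of ratios to NC shows how common each gene's pattern was among 12000 other genes. NDRG1 had the fewest genes within a distance of 0.1 (Euclidean, on both log2 ratios), 67 or 0.558%, and the nearest was ZNF69. OPTN had 255 and was nearest to SPAG5-AS1, and CYLD had 324 and was nearest to PLEC. MTSS1, ADCY6, FBXW7, BRCA1, RASA1 and TNIP1 had between 402 and 1610. USP15 had the most, 1685 or 14%, with NIPSNAP3A nearest. With 2 ratios per gene, nearness says little more than that 3 values are alike.

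In the Gene Ontology terms deposited with the table, BRCA1, CYLD, TNIP1 and USP15 shared protein deubiquitination, a term given to 1.81% of genes with at least 5 CPM in any library. Their ratios of miR-182-5p over NC were 0.852, 1.18, 0.939 and 0.918. The genes were chosen by name and the term was picked from others that they share, so this is a description of the choice.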

How the data were processed

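Gene expression was measured in 3 libraries, 1 per group. The counts per gene are whole numbers as deposited by the authors, and the FPKM values were deposited beside them, per the file headers. Trimming with cutadapt 1.9 and quality checks with FastQC are named in the submitters' processing notes, which give the build as GRCm38, a mouse assembly. All identifiers are human, and 57.9% of gene spans equal those of GENCODE 29 on GRCh38. The aligner, counting program, strand handling and lengths behind the FPKM are not stated in any label or header used here.

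Ratios are of CPM over the library total, with exact 95% intervals (scipy 1.17.1) for counting error only. PCR duplicates without molecular identifiers are not independent. A fold of 1.2 and a minimum of 5 CPM in 1 of 2 libraries are rules of size. Scaling by edgeR 4.0.16 and DESeq2 1.42.0 factors, FPKM with pseudocounts of 1 and 0.1, and other folds were tried. Ratio and interval were tested on simulated Poisson counts for miR-182-5p over NC, without variation between cultures. The intervals assume such counts, so this checks the computation and not the spread between libraries.

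Named genes are the 10 targets and, of other lists, the highest and lowest ratio in each comparison; lists of 4 or fewer are named in full. The value of 1 listed gene is not reported here. Any other gene was picked with its values in view. The targets, lists and thresholds were chosen with earlier results of these data known.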

Additional observations from a re-analysis of the deposited data

How the results depend on the processing

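No paired analysis was possible because each group has 1 library. All 10 genes kept their side of 1 in both comparisons with NC under every scaling and pseudocount tried, and 8 of 10 did for miR-182-5p over miR-183-5p, where CYLD ranged from 0.946 to 1.001 and TNIP1 from 0.95 to 1.01. With DESeq2 or TMM scaling 1 gene, BRCA1, was at least 1.2-fold lower (in place of 0) in the miR-182-5p library against NC and 1 against miR-183-5p. Without mitochondrially encoded genes 2 were higher (in place of 1) for miR-183-5p over NC and 6 (in place of 4) for miR-182-5p over NC, where DESeq2 and TMM gave 3. With FPKM plus 1, 0 were higher for miR-183-5p over NC and 1 (in place of 2) for miR-182-5p over miR-183-5p. With a fold of 1.1, 6 were higher and 2 lower for miR-182-5p over NC. For miR-183-5p over NC 4 were higher and 1 lower, and for miR-182-5p over miR-183-5p also 4 and 1. With a fold of 1.5, 0 were higher in each comparison. The shares of all genes at folds of 1.1 and 1.5 are not given here, so these counts have nothing to be set against. Median log2 ratios over all genes moved between -0.085 and 0.032 for miR-182-5p over NC. The share of all genes at least 1.2-fold higher depends on the minimum level. With at least 1 count it was 40.9% for miR-182-5p over NC (in place of 20.6%), 30.4% for miR-183-5p over NC (in place of 8.05%) and 35.1% for miR-182-5p over miR-183-5p (in place of 14.8%). With at least 20 CPM it was 15.4%, 4.18% and 9.51%. The share lower with at least 1 count was 25.3%, 24.1% and 22.3% in the same order. With FPKM plus 1 the shares higher and lower were 4.53% and 4.39% for miR-183-5p over NC and 8.23% and 4.98% for miR-182-5p over miR-183-5p. With 8-base sites 5 genes (in place of 8) held one. Sums with overlapping genes were chosen after seeing the data. For miR-182-5p over NC they put BRCA1 with AC060780 at 1.11 and MTSS1 with NDUFB9 at 1.16. Each sum holds the other gene's own ratio, so it is not a value of BRCA1 or MTSS1. Depth limits FBXW7 most, on 931 counts in NC, and the single library per group limits every result.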
